A study of Mus musculus with 32 samples.

Results

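The interaction of ligature and occlusal overload was measured in the gingiva of 9-week-old male wild-type C57BL/6J mice, an inbred laboratory strain. The members were all 16 gingiva libraries of the series' 32, in 4 groups of 4, and every gene was read by 1 contrast, (LiTra − Li) − (Tra − Co). LiTra mice carried both a silk ligature round the left second upper molar and a layer of composite resin on its occlusal surface. Li mice carried the ligature alone, Tra mice the resin alone, and Co mice had no treatment. The labels give no time between treatment and sampling, and nothing in them states that libraries came from separate animals, so a p-value here weighs only how far libraries of a group differed. Levels are CPM, counts relative to library totals scaled by the trimmed mean of M values (TMM), and differences are log2 ± SE.

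A ligature holds plaque against the gum margin and brings on periodontitis, in which neutrophils enter the gingiva, cytokines such as interleukin 1 and interleukin 6 rise and RANKL drives osteoclasts to resorb the socket. Occlusal overload strains the periodontal ligament of a tooth that meets its opponent too early. An interaction asks whether overload made the same difference to a gene in ligated gingiva as in gingiva without a ligature. A positive value means that LiTra minus Li lay above Tra minus Co, and a value of 0 means that both treatments added up on the log scale.

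The tissue label fitted its markers, since 15 keratin list genes of gingival epithelium together took 78450 to 91730 CPM in LiTra libraries, 64200 to 133400 in Li libraries, 125400 to 139100 in Tra libraries and 100500 to 125300 in Co libraries. Library totals were 36913075 to 50740393 counts. The 4 ligature libraries did not form 1 group. On the first principal component, which held 29.98% of the variance, LiTra libraries lay at 61.1 to 84.0, Li 1 and Li 2 at 64.6 and 67.4, Li 3 and Li 4 at -28.1 and -4.93, Tra libraries at -61.6 to -28.8 and Co libraries at -81.8 to -33.2. So Li 1 and Li 2 lay among the LiTra libraries and Li 3 and Li 4 nearer to the libraries without a ligature, though Li 3 and Li 4 stayed above all Tra and Co libraries in Saa3 and Mmp13, given below. The labels do not say whether each ligature held until sampling, and Li stands here for the libraries so labelled. Calls without Li 1 and Li 2 are given below by list, and values without one or the other pair for some of the genes. Both pairs were picked after the data were seen. Calls made without a pair describe the split of the Li libraries and are no test of the interaction. Reads also leaned with the GC content of transcripts: the median log2 deviation of the fifth of genes with the highest GC content minus that of the fifth with the lowest was -0.343 to -0.127 in LiTra libraries, 0.022 to 0.273 in Li libraries, -0.215 to 0.221 in Tra libraries and -0.020 to 0.111 in Co libraries. Tra libraries leaned in opposite ways, with Tra 1 and Tra 2 at -0.129 and -0.215 and Tra 3 and Tra 4 at 0.198 and 0.221. The same pairs parted on the second principal component, at 74.35 and 41.49 against -65.3 and -43.03. No fit left out a pair of Tra libraries. Values with the GC trend removed stand beside part of the results.

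No gene showed an interaction that passed the test. The quasi-likelihood test of edgeR called 0 of 20143 genes (0%) at a Benjamini-Hochberg adjusted p under 0.05, and the lowest adjusted p was 0.255. At an unadjusted p under 0.05 it held 2289 genes (11.4%), of which 928 were positive (4.61%) and 1361 negative (6.76%). With the GC trend removed there were 1691 (8.39%), of which 3.08% of all genes tested were positive and 5.31% negative. DESeq2 called 183 genes (0.909%), 82 positive (0.407%) and 101 negative (0.501%), and limma-voom called 0. The negative calls of DESeq2 included the muscle genes Actn3, Myh3, Myh8 and Myog and the salivary gland gene Dcpp2. Some of its calls had extreme values, with Elane at -24.66 ± 4.4 and Gm49333 at 24.76 ± 4.49. Without Li 1 and Li 2, edgeR called 404 (1.9%), and without Li 3 and Li 4 it called 0 of 21467 genes. The median over all genes was -0.03. The 95% interval of a gene with a mean log2 CPM of at least 1 reached 0.472 to either side at the median over 13984 such genes, an unadjusted interval that is narrower than the adjusted test needs. Nothing said below of single genes rests on a call by edgeR for the interaction with all 16 libraries.

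A pair of stress gene lists held larger shares of small p-values than all genes did, heat shock chaperones on the negative side and oxidative stress genes on the positive side. In both, the untreated gingiva differed in summed level from every treated library. They were not alone, since nasal gland, salivary gland and erythroid genes each held 54.55% on the negative side, against 47.06% of chaperones. On the positive side these 3 lists held 0%, 18.18% and 0%. Cell cycle genes held 35.0% on the positive side, against 46.15% of oxidative stress genes. Chaperones hold and refold damaged proteins and are switched on by heat shock factor, which binds repeats of the letters GAA and TTC. The enzymes that make glutathione or detoxify quinones and lipid aldehydes are switched on by Nrf2, which binds the antioxidant response element. Summed over 17 chaperone genes, the level was 6351 to 7903 CPM in LiTra libraries, 6498 to 8125 in Li libraries, 6446 to 7811 in Tra libraries and 5451 to 5855 in Co libraries, so the 4 Co libraries lay below the other 12. Hspa8 alone made up 1259 to 1448 CPM of this in Co, and a sum follows its most abundant members. Summed over 13 metallothionein and oxidative stress genes it was 3134 to 3870 CPM in LiTra libraries, 3128 to 3726 in Li libraries, 3757 to 3922 in Tra libraries and 4149 to 4855 in Co libraries, so the 4 Co libraries lay above the other 12.

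Promoters of 4 of these genes are shown because heat shock factor and Nrf2 are known to act through such letters, and they were chosen for holding a match. The promoters listed for Nqo1 and Slc7a11 held no match, nor did 2 of 3 listed for Txnrd1, and no entry was used for Hspa8, Gclc and Gsta4. They are RefSeq sequences of build GRCm38.p6, from 250 bases before to 50 bases after a listed start, and capitals mark the letters GAANNTTC or TTCNNGAA in the first pair and TGACNNNGC or GCNNNGTCA in the second, read on both strands and allowed to overlap.
Hspa1a (chr17:34972107-34972406, minus strand): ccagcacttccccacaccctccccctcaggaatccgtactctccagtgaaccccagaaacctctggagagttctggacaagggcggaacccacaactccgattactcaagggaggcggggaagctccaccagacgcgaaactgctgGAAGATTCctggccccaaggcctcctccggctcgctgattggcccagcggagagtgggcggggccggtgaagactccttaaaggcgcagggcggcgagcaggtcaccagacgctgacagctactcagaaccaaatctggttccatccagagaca
Hsph1 (chr5:149636287-149636586, minus strand): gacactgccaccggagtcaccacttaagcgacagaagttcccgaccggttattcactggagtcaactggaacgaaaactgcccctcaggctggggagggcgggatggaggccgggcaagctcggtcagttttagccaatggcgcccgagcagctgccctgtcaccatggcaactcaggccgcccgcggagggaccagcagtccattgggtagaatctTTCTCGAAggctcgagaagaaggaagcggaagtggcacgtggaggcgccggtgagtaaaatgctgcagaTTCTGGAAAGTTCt
Gclm (chr3:122245307-122245606, plus strand): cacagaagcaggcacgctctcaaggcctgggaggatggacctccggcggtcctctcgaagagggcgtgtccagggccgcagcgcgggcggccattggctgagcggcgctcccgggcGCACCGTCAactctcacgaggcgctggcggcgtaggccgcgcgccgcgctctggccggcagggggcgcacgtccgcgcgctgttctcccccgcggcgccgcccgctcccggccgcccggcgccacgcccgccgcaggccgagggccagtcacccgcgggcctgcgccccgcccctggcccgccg
Txnrd1 (chr10:82858956-82859255, plus strand): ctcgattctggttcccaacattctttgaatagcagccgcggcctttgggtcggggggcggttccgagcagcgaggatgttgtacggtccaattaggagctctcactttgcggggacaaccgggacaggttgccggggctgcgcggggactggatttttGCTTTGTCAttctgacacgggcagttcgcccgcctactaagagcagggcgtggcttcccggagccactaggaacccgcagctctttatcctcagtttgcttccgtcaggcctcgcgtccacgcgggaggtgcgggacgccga
The chaperone letters stood in 10 of 18 listed promoters of 13 chaperone genes (55.6%), in 0 of 12 promoters of 10 oxidative stress genes and in 15.1% of all 32851 promoters. The antioxidant letters stood in 4 of those 12 promoters (33.3%), those of Gclm, Mt2, Srxn1 and Txnrd1, in 3 of the 18 chaperone promoters (16.7%) and in 12.4% of all promoters. Both lists hold genes known to answer to these factors, so the shares do not bear on the interaction. Hspa1a has the letters GAAGATTC 104 bases before its start, and Gclm has GCACCGTCA 134 bases before its start. A match is a run of letters, and binding was not measured.

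Hspa8, the constitutive cytosolic chaperone of the HSP70 family, had the smallest p of the chaperone list. It stood at 2452, 2101, 2194 and 2435 CPM in LiTra gingiva, 2038, 2022, 2283 and 2494 in Li, 2021, 1975, 2294 and 2279 in Tra and 1369, 1422, 1259 and 1448 in Co. All 4 Co libraries lay below the other 12, and the 3 treated groups overlapped. Hspa8 rose in Li relative to Co by 0.68 ± 0.09 (edgeR adjusted p = 0.00148), while Tra minus Co was 0.64 ± 0.09 (adjusted p = 0.0583) and LiTra minus Li was 0.06 ± 0.09. Its interaction of -0.59 ± 0.13 was not called by edgeR (adjusted p = 0.264), with a 95% interval of -0.86 to -0.31. It was -0.67 with the GC trend removed and -0.70 without Li 1 and Li 2, and ran from -0.70 to -0.47 over all settings.

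Hsph1, a nucleotide exchange factor for HSP70, was also lowest in Co. It stood at 129, 90.8, 97.3 and 122 CPM in LiTra gingiva, 94.6, 93.0, 129.9 and 153 in Li, 120.2, 105, 154 and 164 in Tra and 79.1, 71.6, 89.4 and 81.1 in Co, so Co again lay below the other 12 libraries. Its interaction was -0.86 ± 0.25, -0.90 with the GC trend removed, -1.12 without Li 1 and Li 2 and -0.54 without Li 3 and Li 4. Hspa1a, the inducible HSP70, stood at 48.1, 35.4, 47.3 and 46.3 CPM in LiTra gingiva, 51.6, 59.4, 84.3 and 109 in Li, 86.6, 58.9, 106 and 117 in Tra and 49.2, 55.0, 65.4 and 74.6 in Co. Here LiTra lay below the other 12 libraries, and Tra held the highest single value. The interaction of Hspa1a was -1.38 ± 0.34 (95% interval -2.09 to -0.66) and that of its near-identical neighbour Hspa1b was -1.28 ± 0.34. Reads of the pair may be split between them, which leaves each value uncertain.

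Over the list, 8 of 17 chaperone genes had a negative interaction at an unadjusted p under 0.05, against 6.76% of all genes, and 6 did so with the GC trend removed, against 5.31%. The median interaction was -0.59, and -0.45 with the GC trend removed. The 8 were Hspa1a, Hspa1b, Hspa8, Hsph1, Hsp90ab1 and the small heat shock proteins Hspb1, Hspb8 and Cryab. DESeq2 called 3 of the 17, Hspa1a, Hspa1b and Hspa8, against 0.909% of all genes. Without Li 1 and Li 2, edgeR called 6 as negative, Hspa1a, Hspa1b, Hspa8, Hspb1, Hspb8 and Hsph1, against 1.9% of all genes. Of the 17, 5 had a positive interaction, and 1 of these had an unadjusted p under 0.05. It was Hsp90b1, the HSP90 of the endoplasmic reticulum, at 0.38 ± 0.15, which was 0.21 with the GC trend removed. Its 4 LiTra libraries, at 646 to 862 CPM, lay above the other 12, at 561 to 627 in Li libraries, 422 to 524 in Tra libraries and 408 to 517 in Co libraries. LiTra also lay above the other 12 in Dnaja1 and Hsp90aa1, so in 3 of the 17, and below them in 1, Hspa1a. Co lay below the other 12 in Hspa8, Hspd1 and Hsph1. Over all genes, LiTra lay above the other 12 libraries in 1.59% and below them in 1.64%, and Co lay below them in 0.804% and above them in 0.432%.

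**Figure D1:**
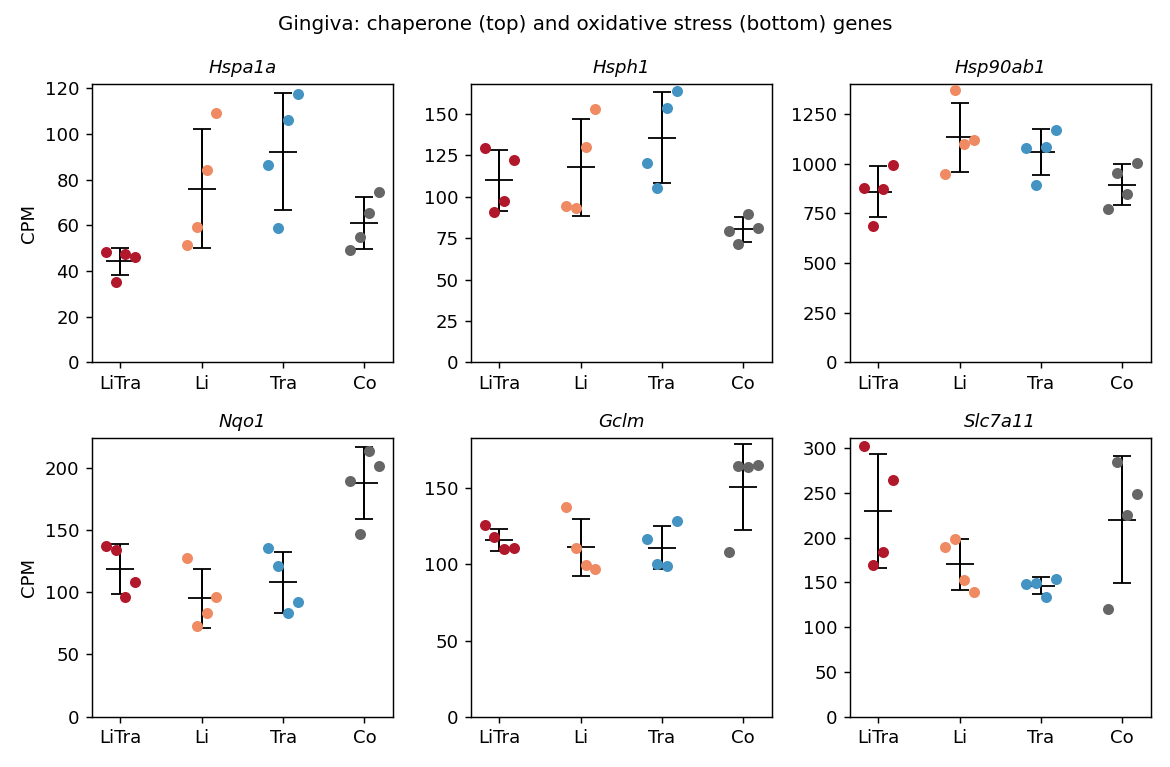
CPM (vertical axes, from 0) of 3 chaperone genes and 3 oxidative stress genes in the 16 gingiva libraries, with LiTra, Li, Tra and Co from left to right; points are libraries and bars are mean ± SD (n = 4). Co is the lowest group for Hsph1 and the highest for Nqo1, while LiTra is the lowest group for Hspa1a.

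Nqo1, the quinone reductase that serves as a standard Nrf2 target, was highest in untreated gingiva. It stood at 137, 134, 95.8 and 108 CPM in LiTra gingiva, 128, 73.0, 83.1 and 96.2 in Li, 136, 121, 83.5 and 92.0 in Tra and 189.7, 147, 214 and 201 in Co, and the 4 Co libraries lay above the other 12. Nqo1 fell in Li relative to Co by 0.98 ± 0.19 (edgeR adjusted p = 0.00897), while Tra minus Co was -0.80 ± 0.19 (adjusted p = 0.343) and LiTra minus Li was 0.32 ± 0.19. The interaction was 1.12 ± 0.27 (adjusted p = 0.264, 95% interval 0.54 to 1.70), and 1.07 with the GC trend removed.

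Gsta4, a glutathione transferase that clears reactive aldehydes of lipid peroxidation, had the smallest p of the list. It stood at 993, 806, 776 and 896 CPM in LiTra gingiva, 711, 602, 624 and 764 in Li, 681, 768, 763 and 801 in Tra and 875, 939, 1005 and 1138 in Co, with LiTra above Li in every library and Tra below Co in every library. Its interaction was 0.76 ± 0.16, and 0.77 with the GC trend removed. Gsta4 fell in Li relative to Co (adjusted p = 0.00943), by 0.55 ± 0.11. Slc7a11, the cystine importer that feeds glutathione synthesis, stood at 302, 169, 184 and 265 CPM in LiTra gingiva, 189.7, 199, 152 and 139 in Li, 148, 149.6, 133 and 154 in Tra and 119.9, 284, 225 and 249 in Co, with wide overlap of LiTra and Co.

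In all, 6 of the 13 genes had a positive interaction at an unadjusted p under 0.05, against 4.61% of all genes, and 5 did so with the GC trend removed, against 3.08%. Beside Nqo1, Gsta4 and Slc7a11 these were Gclc at 0.89 ± 0.22, Gclm at 0.50 ± 0.20 and Txnrd1 at 0.49 ± 0.12, which encode both subunits of glutamate-cysteine ligase and the cytosolic thioredoxin reductase. Co 1 was low in both ligase genes, at 195 CPM for Gclc and 108 CPM for Gclm, inside the range of the treated groups. DESeq2 called 4 of the 13, Gclc, Gsta4, Nqo1 and Txnrd1, against 0.909% of all genes. Without Li 1 and Li 2, edgeR called Nqo1 and Txnrd1 as positive and the metallothionein Mt4 as negative, against 1.9% of all genes. The list median was 0.33, and 5 of the 13 genes had a negative interaction, the lowest -0.67. In Mt1, another metallothionein, Co lay below the other 12 libraries, the opposite of Nqo1. None of the 6 positive genes was called by edgeR in LiTra minus Li or in Tra minus Co, where 0.0844% and 0% of all genes were.

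Cell cycle genes leaned to positive values. Of 20 cell cycle genes, 7 were positive at an unadjusted p under 0.05, against 4.61% of all genes, and 4 with the GC trend removed, against 3.08%. The median was 0.46, and 0.38 with the GC trend removed. DESeq2 called 0 of the 20, against 0.909% of all genes, and edgeR without Li 1 and Li 2 called 0, against 1.9%. In 9 of the 20 the 4 LiTra libraries lay above the other 12, against 1.59% of all genes: Bub1, Bub1b, Ccna2, Ccnb1, Cdk1, Cenpf, Mki67, Top2a and Tyms. Ccnb1, the cyclin of mitotic entry, stood at 62.9, 58.3, 60.2 and 58.9 CPM in LiTra gingiva, 45.7, 39.4, 30.99 and 42.3 in Li, 15.8, 18.5, 28.3 and 29.5 in Tra and 21.5, 37.2, 28.6 and 32.5 in Co. LiTra lay above the other 12 libraries, Li lay above Tra, and Co overlapped both. Its interaction was 0.98 ± 0.28 (adjusted p = 0.264), and LiTra was higher than Tra by 1.38 ± 0.20 (adjusted p = 0.000918), a comparison in which 18.8% of all genes were called. Cenpf, a kinetochore protein, had an interaction of 0.82 ± 0.27.

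**Figure D2:**
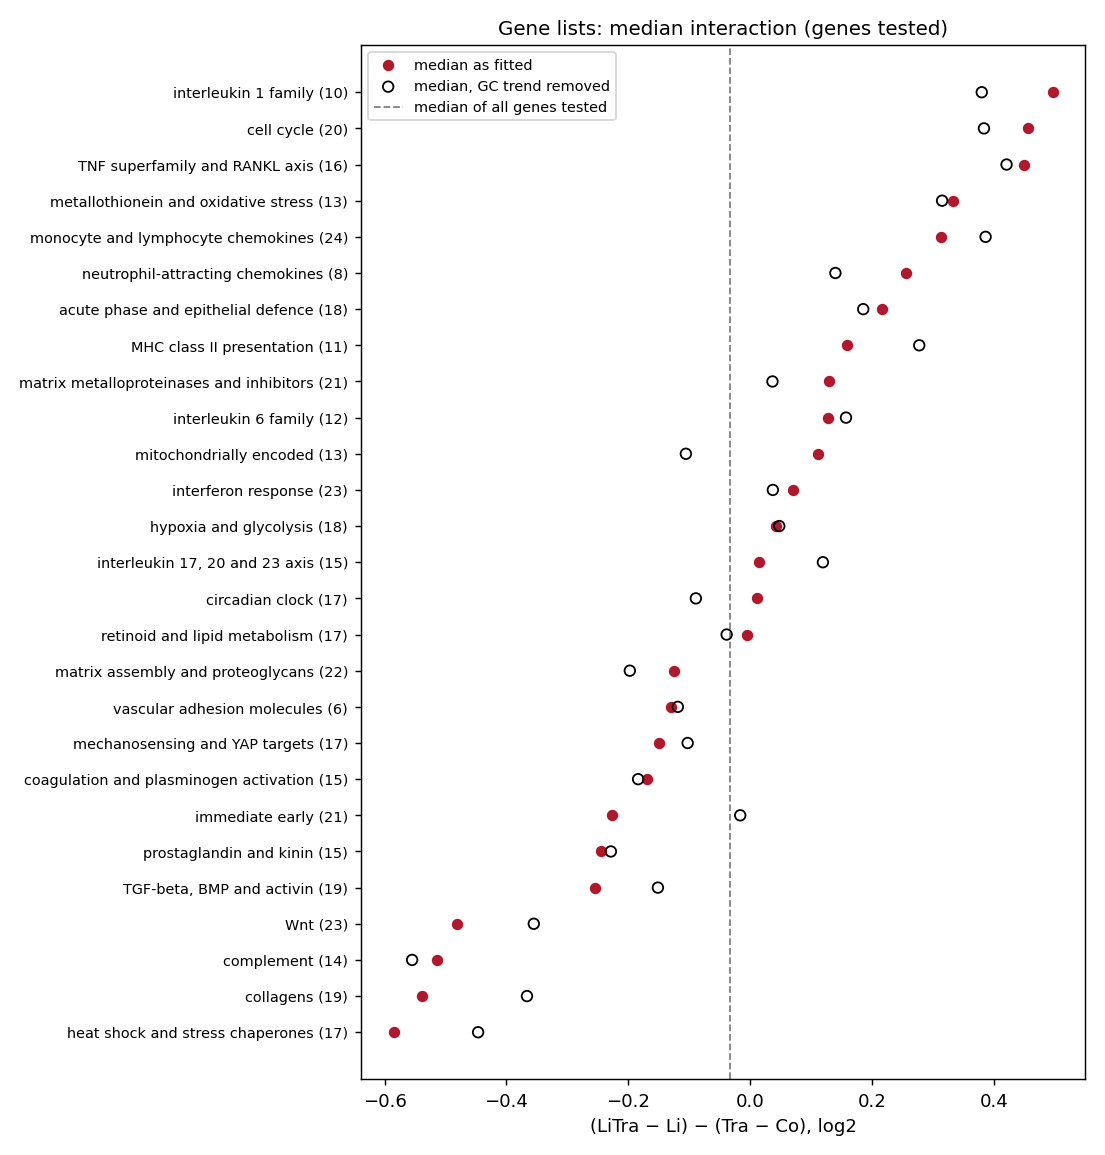
Median log2 interaction over the tested genes of each pathway list (horizontal axis), with the number of genes tested in brackets; filled points are the values as fitted, open points those with the GC trend removed, and the dashed line is the median of all 20143 genes. As fitted, chaperones lie lowest at -0.59 and cell cycle genes near the top at 0.46; with the GC trend removed complement genes lie lowest at -0.55 and chaperones lie at -0.45.

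A set of 24 genes took the smallest p, 12 in each direction, among genes with a symbol and a mean log2 CPM of at least 1. Predicted genes and pseudogenes were passed over. The 24 had adjusted p-values of 0.255 to 0.264 by edgeR and were all called by DESeq2 (adjusted p 9.05e-05 to 0.013), which called 0.909% of all genes. They were chosen by this contrast, so their values describe them and test nothing. Over all genes, LiTra and Li did not overlap in 10.5% and Tra and Co in 5.08%, Tra lay above the other 12 libraries in 0.248% and below them in 0.154%, and Li lay below them in 0.308%. All 24 kept their sign with the GC trend removed. Without Li 1 and Li 2, edgeR called 5 of the 12 positive genes and 10 of the 12 negative genes, against 1.9% of all genes, in libraries that also chose them. Without Li 3 and Li 4 it called 0 of the 12 positive and 0 of the 12 negative genes, and 0 of all 21467 genes. All 12 positive genes had LiTra above Li and Tra below Co in the fitted values, and 11 of the 12 negative genes had LiTra below Li and 11 had Tra above Co. Interactions ran from 0.51 to 1.09 among the positive genes and from -1.29 to -0.44 among the negative genes.

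Cdh13 and Lipg, on the negative side, had their highest mean levels in Tra. Cdh13, which encodes T-cadherin, a cadherin held in the membrane by a lipid anchor, had the smallest p of all named genes (2.13e-05). It stood at 36.1, 50.2, 47.4 and 45.9 CPM in LiTra gingiva, 48.1, 51.1, 63.4 and 62.3 in Li, 69.6, 63.1, 68.7 and 63.5 in Tra and 34.9, 43.0, 44.1 and 43.9 in Co, so Tra did not overlap Co. Its interaction was -0.9997 ± 0.16 (95% interval -1.35 to -0.65). Lipg, the endothelial lipase, stood at 5.98, 4.16, 7.32 and 6.99 CPM in LiTra gingiva, 8.31, 9.02, 8.71 and 8.27 in Li, 10.02, 9.26, 11.03 and 11.4 in Tra and 5.88, 5.63, 5.30 and 7.22 in Co, and the 4 Tra libraries lay above the other 12. Its interaction was -1.29 ± 0.24, and -1.24 with the GC trend removed.

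**Figure D3:**
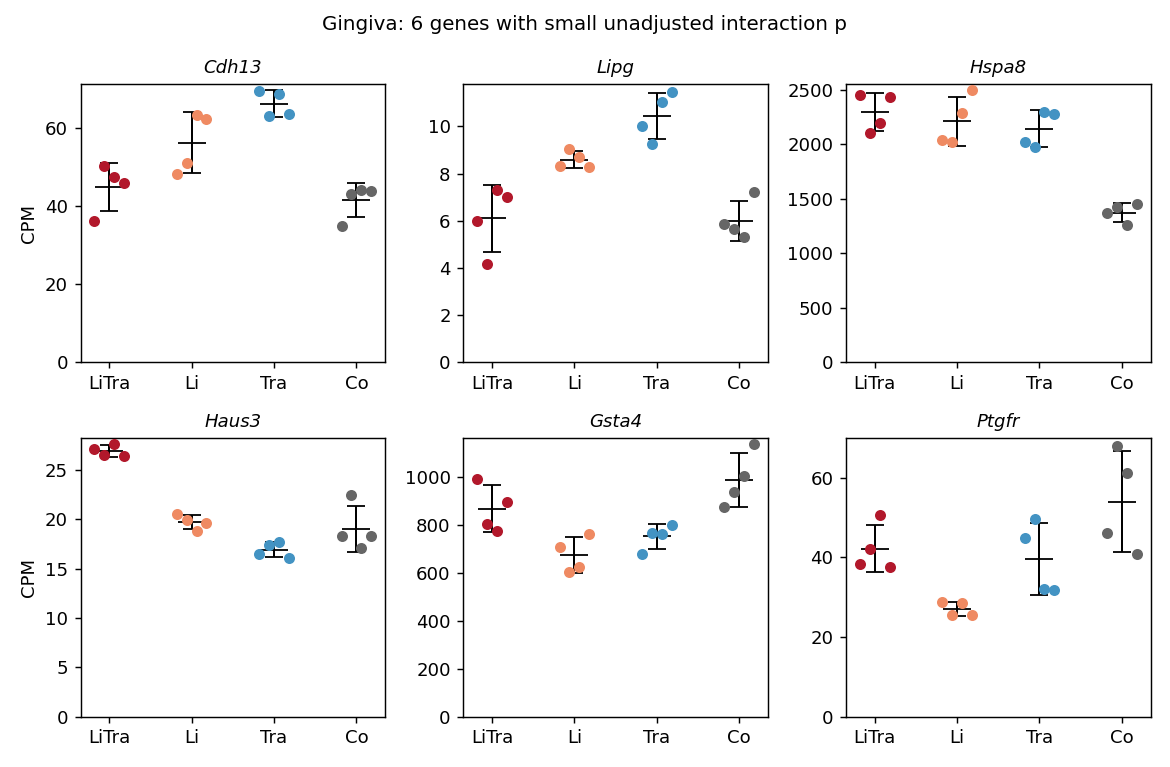
CPM (vertical axes, from 0) of 6 of the 24 genes in the 16 gingiva libraries, with LiTra, Li, Tra and Co from left to right. The 24 had the smallest interaction p among genes with a symbol and a mean log2 CPM of at least 1, predicted genes and pseudogenes passed over. Points are libraries and bars are mean ± SD (n = 4). Lipg is highest in Tra, Hspa8 is lowest in Co, Haus3 is highest in LiTra and Ptgfr is lowest in Li.

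Other negative genes had roles in translation, lysosomes, ubiquitin transfer and other processes. Eef2, the factor that moves the ribosome along the message, stood at 1994 to 2396 CPM in LiTra libraries, 2491 to 2734 in Li libraries, 2376 to 2824 in Tra libraries and 1926 to 2204 in Co libraries, with an interaction of -0.56 ± 0.11. Eif3d, a subunit of the initiation factor that recruits the small ribosomal subunit, had -0.44 ± 0.10. Ctns, the lysosomal cystine exporter, had -0.53 ± 0.12, with Co at 15.8 to 17.01 CPM below the other 12 libraries at 19.8 to 26.3 CPM. Pld3, a lysosomal nuclease of the phospholipase D family, had -0.72 ± 0.15. Rnf167, a membrane-bound ubiquitin ligase, had -0.48 ± 0.10, and Mtmr3, a phosphoinositide phosphatase, had -0.49 ± 0.11. In both, LiTra lay below and Tra above the other 12 libraries. Smarcd2, a subunit of the BAF chromatin remodeller, had -0.54 ± 0.11 with Tra above the other 12, and Dnaja3, a mitochondrial co-chaperone, had -0.52 ± 0.11.

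Among the positive genes, Ptgfr, the receptor for prostaglandin F, had the largest interaction, 1.09 ± 0.25 (95% interval 0.57 to 1.62). It stood at 38.5, 42.1, 50.7 and 37.6 CPM in LiTra gingiva, 28.7, 25.5, 28.5 and 25.4 in Li, 44.9, 49.5, 31.96 and 31.7 in Tra and 46.0, 67.9, 61.3 and 41.0 in Co. The 4 Li libraries lay below the other 12, and Ptgfr fell in Li relative to Co (adjusted p = 0.00545). Maoa, the monoamine oxidase that degrades serotonin and noradrenaline, had 0.57 ± 0.12, with Li at 30.9 to 39.8 CPM below and Co at 48.2 to 59.6 CPM above all other libraries. Esd, an esterase of the formaldehyde detoxification route, had 0.61 ± 0.13, and Taf9b, a relative of a TFIID subunit, had 0.72 ± 0.16. In both, Co lay above the other 12 libraries.

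Sec61g, a subunit of the channel through which new proteins enter the endoplasmic reticulum, stood at 63.7, 57.1, 59.4 and 60.3 CPM in LiTra gingiva, 61.6, 49.5, 48.2 and 52.4 in Li, 41.9, 42.8, 38.6 and 45.1 in Tra and 64.5, 54.5, 52.9 and 63.4 in Co. The 4 Tra libraries lay below the other 12, and its interaction was 0.67 ± 0.13. Haus3, a subunit of the augmin complex of the mitotic spindle, stood at 27.1, 26.5, 27.7 and 26.4 CPM in LiTra gingiva, 20.5, 19.95, 18.8 and 19.6 in Li, 16.5, 17.3, 17.7 and 16.1 in Tra and 18.3, 22.4, 17.1 and 18.3 in Co. The 4 LiTra libraries lay above the other 12, and its interaction was 0.62 ± 0.12. LiTra also lay above the other 12 in Cnot6, a deadenylase of the CCR4-NOT complex (0.51 ± 0.11), in Tmed8 (0.55 ± 0.13) and in Spaca6, known for its role in sperm-egg fusion (0.79 ± 0.18). The other 2 were Eif1a, a translation initiation factor, at 0.52 ± 0.11 and Ccdc82 at 0.70 ± 0.16.

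GC content went with the sign of the interaction. Across 13960 genes with a mean log2 CPM of at least 1, its Spearman correlation with the interaction was -0.438, a description over genes that share the same 16 libraries. The median interaction was 0.16 in the fifth of genes with the lowest GC content and -0.24 in the fifth with the highest. LiTra minus Li ran the same way, from 0.17 to -0.27, while Tra minus Co was close to 0 in both, at -0.00091 and -0.047. The Tra side pools libraries with opposite leans, negative in Tra 1 and Tra 2 and positive in Tra 3 and Tra 4. Its values near 0 thus do not show that single Tra libraries lacked the trend. With the trend removed, Haus3 had 0.37, Cnot6 and Eif1a had 0.31, Maoa had 0.38, Smarcd2 had -0.38 and Eef2 had -0.40. Of the 24 genes with the smallest p, only Gsta4, Cdh13, Rnf167 and Hspa8 had a larger size with the trend removed. The part of base composition in these values was not tested beyond the trend removal.

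Inflammatory genes had interactions whose intervals reached far to both sides of 0. Il6, a cytokine of the acute phase, stood at 20.6, 13.2, 0.971 and 21.1 CPM in LiTra gingiva, 20.6, 25.2, 0.244 and 0.533 in Li, 0, 0, 0 and 0.165 in Tra and 0.0971, 0.0958, 0 and 0.0794 in Co. Only 3 LiTra libraries and Li 1 and Li 2 stood above 1 CPM. With Tra and Co near 0 the fitted value depends on the prior count, and the interaction was 0.97 ± 2.45 (95% interval -4.25 to 6.20). Saa3, an acute phase protein of inflamed tissue, stood at 1196, 554, 136 and 911 CPM in LiTra gingiva, 1048, 1068, 109 and 81.0 in Li, 0.640, 0.840, 0.0868 and 1.70 in Tra and 0.437, 2.16, 0.144 and 1.96 in Co, and LiTra and Li overlapped over most of their range. Its interaction was 0.80 ± 1.37 (95% interval -2.11 to 3.72).

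Il1b, the interleukin 1 made by activated myeloid cells, stood at 510.1, 196, 137 and 401 CPM in LiTra gingiva, 327, 415, 53.9 and 58.5 in Li, 39.2, 85.9, 4.67 and 24.3 in Tra and 18.2, 94.7, 33.9 and 32.5 in Co. Li 3 and Li 4 lay below Co 2, and the interaction was 0.76 ± 1.13. S100a8, a calprotectin subunit that fills the cytosol of neutrophils, stood at 3279.9, 1483, 896 and 3582 CPM in LiTra gingiva, 2861, 2268, 424 and 357 in Li, 127, 197, 42.6 and 113 in Tra and 46.5, 314, 146 and 146 in Co, with an interaction of 1.09 ± 0.996, 3.01 without Li 1 and Li 2 and 0.28 without Li 3 and Li 4. Levels in bulk tissue cannot tell fewer cells of a type apart from less RNA per cell. The summed level of 20 neutrophil markers ran the same way, at 2694 to 9744 CPM in LiTra libraries, 1214 to 8277 in Li libraries, 239 to 1270 in Tra libraries and 227 to 1089 in Co libraries, and its part in these values was not tested. S100a8 is itself among the 20 and made up 3279.9 of 9129 CPM in LiTra 1, so the sum is no separate reading of it.

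**Figure D4:**
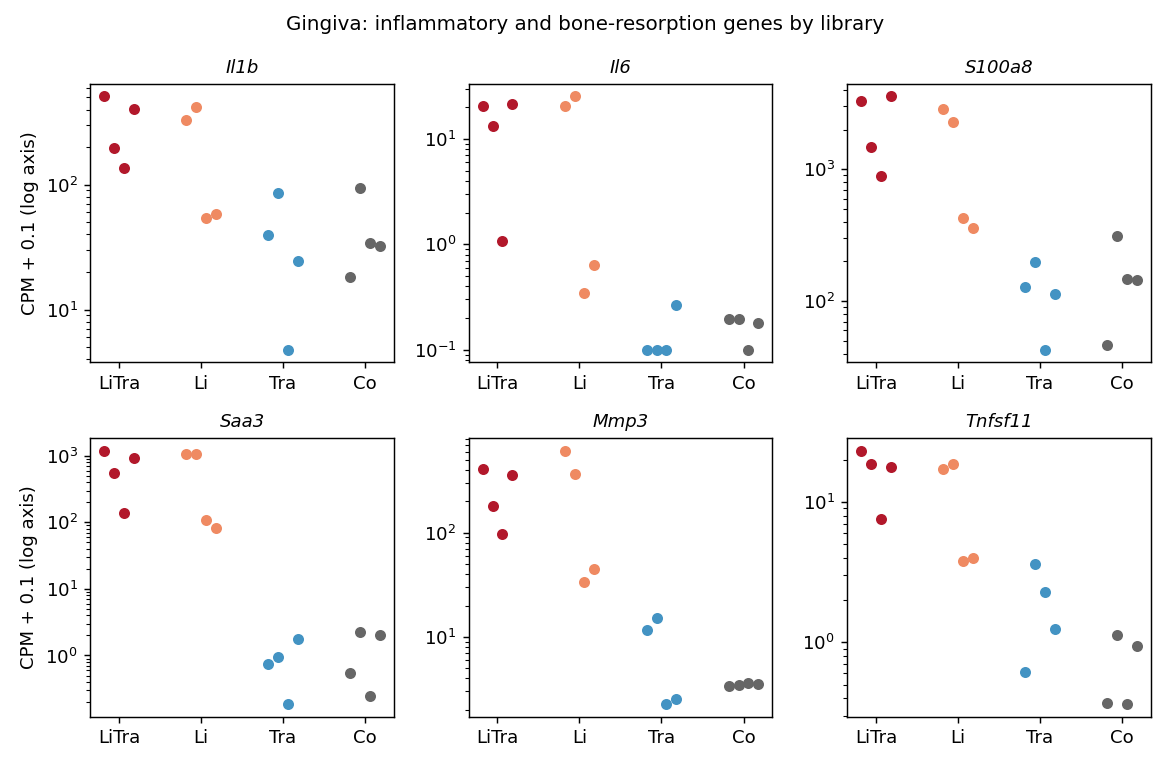
CPM + 0.1 (vertical log axes) of 6 inflammatory and bone-resorption genes in the 16 gingiva libraries, with LiTra, Li, Tra and Co from left to right; each point is a library. Li 1 and Li 2 (the left pair of Li points) lie with LiTra, while Li 3 and Li 4 lie lower, with Il6 at 0.244 and 0.533 CPM.

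Tnfsf11 and Mmp13, genes of bone and matrix resorption, rose with the ligature in both states of load. Tnfsf11, which encodes RANKL, stood at 23.1, 18.4, 7.41 and 17.7 CPM in LiTra gingiva, 17.2, 18.6, 3.71 and 3.89 in Li, 0.517, 3.53, 2.17 and 1.15 in Tra and 0.267, 1.03, 0.264 and 0.847 in Co. It rose in LiTra relative to Tra by 3.17 ± 0.69 (adjusted p = 0.00639) and in Li relative to Co by 4.17 ± 0.74 (adjusted p = 0.00553), comparisons in which 18.8% and 7.49% of all genes were called. Its interaction was -0.997 ± 0.93 (95% interval -2.97 to 0.98), and 0.51 without Li 1 and Li 2. Tnfrsf11b, which encodes the RANKL decoy osteoprotegerin, had an interaction of 0.63 ± 0.46.

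Mmp13, the collagenase of resorbing tissue, stood at 1279.6, 1389.8, 661 and 907 CPM in LiTra gingiva, 937, 1012, 260.5 and 368 in Li, 24.3, 129, 49.2 and 61.5 in Tra and 50.2, 50.4, 34.2 and 40.5 in Co, so both ligated groups lay above both groups without a ligature. It rose in LiTra relative to Tra by 4.01 ± 0.53 (adjusted p = 0.000676) and in Li relative to Co by 3.88 ± 0.52 (adjusted p = 0.00148). The interaction was 0.13 ± 0.66 (95% interval -1.28 to 1.53), and -0.48 without Li 3 and Li 4. Ctsk, the collagen-cutting protease of osteoclasts, had 0.06 ± 0.53 (95% interval -1.08 to 1.20). Mmp3, a stromelysin, had -1.22 ± 1.15, and 1.53 without Li 1 and Li 2.

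Of 18 genes of inflammation, resorption, matrix and epithelium fixed for the text, 0 had an interaction with an unadjusted p under 0.05, against 11.4% of all genes, and the lowest p was 0.088. Their interactions ran from -1.22 to 1.09 with standard errors of 0.27 to 2.45. By edgeR, 0 were called in LiTra minus Li, against 0.0844% of all genes, 12 in LiTra minus Tra, against 18.8%, and 9 in Li minus Co, against 7.49%. By list, 0 of 10 interleukin 1 genes, 0 of 12 interleukin 6 genes, 0 of 8 neutrophil-attracting chemokines, 0 of 23 interferon response genes and 0 of 21 matrix metalloproteinases and inhibitors were at an unadjusted p under 0.05 in either direction. Of 16 TNF superfamily and RANKL axis genes 1 was, on the positive side.

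Epithelial keratins all had negative values, whose size turned on the ligature pairs. The 15 genes of the keratin list, Trp63 among them, all lay below 0, with a median of -0.62 (-0.45 with the GC trend removed). Of these, 3 had an unadjusted p under 0.05, against 6.76% of all genes. With the GC trend removed 1 did, against 5.31%. Krt10, a keratin of differentiated layers, stood at 202, 375, 474 and 257 CPM in LiTra gingiva, 302, 428, 1720.3 and 1804 in Li, 1596, 1417, 2504 and 2811 in Tra and 1558, 1809, 1451 and 2075 in Co. Li 1 and Li 2 lay among the LiTra libraries and Li 3 and Li 4 among Tra and Co. The interaction was -1.97 ± 0.67 (edgeR adjusted p = 0.323), -2.70 without Li 1 and Li 2 and -0.44 without Li 3 and Li 4. Krt13, the keratin of non-cornified mucosa, had -0.86 ± 0.48, -1.44 without Li 1 and Li 2 and 0.11 without Li 3 and Li 4. Loricrin, the main protein of the cornified envelope (Lor), had -1.13 ± 0.58, -1.80 without Li 1 and Li 2 and 0.16 without Li 3 and Li 4. Without Li 1 and Li 2, edgeR called as negative 3 of 15 keratin list genes (Krt10, Krt13 and Krt76), 4 of 25 of the cornified envelope (Klk5, Lor, Sbsn and Tgm3) and 2 of 16 of the desmosome (Dsc1 and Dsg1a), against 1.9% of all genes. That fit keeps only Li 3 and Li 4, which lay among Tra and Co in Krt10. Its calls thus cannot part an interaction from the difference between the Li pairs. Jup and Pkp1, plaque proteins of desmosomes, had -0.92 ± 0.37 and -0.57 ± 0.23.

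In connective tissue, 3 of 12 fibroblast markers were negative at an unadjusted p under 0.05, with and without the GC trend, against 6.76% and 5.31% of all genes. Gsn, which severs actin filaments, stood at 379.9, 447, 447 and 413 CPM in LiTra gingiva, 486, 684, 933 and 747 in Li, 998, 759, 948 and 898 in Tra and 911, 708, 737 and 782 in Co. The 4 LiTra libraries lay below the other 12, its interaction was -0.96 ± 0.22, and DESeq2 called it. Clec3b, a plasminogen-binding matrix protein, had -1.85 ± 0.57. The summed level of the 12 markers did not part the groups, at 2088 to 2521 CPM in LiTra libraries, 2036 to 2702 in Li libraries, 2183 to 2516 in Tra libraries and 1721 to 2327 in Co libraries. Col1a1 had -0.78 ± 0.62, and the 2 collagens of 19 at an unadjusted p under 0.05 were negative.

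RNA of other tissues varied widely between libraries, and its lists had negative medians. Over 20 skeletal muscle genes the summed level was 180.2 to 770.1 CPM in LiTra libraries, 726 to 5001 in Li libraries, 165 to 12220 in Tra libraries and 224 to 4769 in Co libraries. Over 11 salivary gland genes it was 4.66 to 29.2 CPM in LiTra libraries, 169 to 8374 in Li libraries, 67.4 to 4280 in Tra libraries and 17.2 to 5885 in Co libraries. Over 11 nasal gland genes Tra 2 alone reached 32050 CPM, against 3.53 to 241 in LiTra, 4.05 to 1097 in Li and 6.95 to 103.6 in Co. The 4 LiTra libraries lay in the low part of the range for muscle and salivary RNA, where they overlapped Co and, for muscle, also Li and Tra. The list medians of the interaction were -2.58 for muscle, -7.00 for salivary gland and -11.49 for nasal gland.

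Muc5b, a mucin of mucous glands, stood at 0, 2.30, 0.189 and 13.9 CPM in LiTra gingiva, 142, 171, 7917 and 1149.8 in Li, 55.5, 468, 3797 and 2470.0 in Tra and 5019, 3519.9, 2177 and 0.0794 in Co, and Actn3, the actinin of fast muscle fibres, at 1.80, 5.24, 3.03 and 3.85 CPM in LiTra gingiva, 2.197, 97.1, 13.6 and 5.98 in Li, 33.3, 59.7, 2.19 and 1.95 in Tra and 1.72, 1.01, 1.97 and 0.952 in Co. Actn3 was thus low in Co, unlike the summed muscle level, which was 4481, 224, 4753 and 4769 CPM in the Co libraries. Erythroid genes took 269.9 to 474 CPM in LiTra libraries, 297 to 2352 in Li libraries, 673 to 1574 in Tra libraries and 311 to 853 in Co libraries, and 6 of 11 were negative at an unadjusted p under 0.05, with and without the GC trend, against 6.76% and 5.31% of all genes. The part of these tissues in the other results was not tested.

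**Figure D5:**
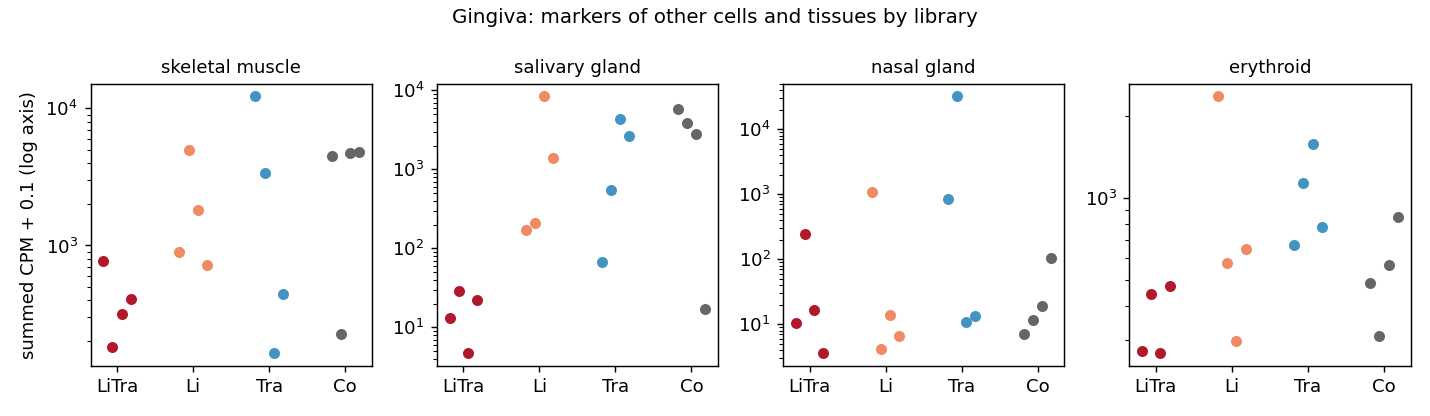
Summed CPM + 0.1 (vertical log axes) of markers of skeletal muscle, salivary gland, nasal gland and erythroid cells in the 16 gingiva libraries, with LiTra, Li, Tra and Co from left to right; each point is a library. The LiTra libraries hold 4.66 to 29.2 CPM of salivary markers, and Tra 2 holds 32050 CPM of nasal gland markers.

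The same contrast in bone gave no call either. It held 644 of 21205 genes at an unadjusted p under 0.05 (3.04%) and called 0 (0%), with a median SE of 0.268 among genes with a mean log2 CPM of at least 1, against 0.222 in gingiva. A fit of all 32 libraries called 0 of 22559 genes (0%) for the gingiva minus the bone interaction by edgeR, with 1282 (5.68%) at an unadjusted p under 0.05 and 41 called by DESeq2. Of the 24 genes, 19 had the same sign in bone, a count with no test, and the share over all genes was not counted. Several of these were smaller than their SE in bone, such as Tmed8 at 0.02 ± 0.19, Smarcd2 at -0.02 ± 0.17, Eif3d at -0.04 ± 0.09 and Pld3 at -0.05 ± 0.18. Hspa8 had -0.44 ± 0.18 in bone, and Cdh13 had -0.31 ± 0.56. No gene was thus shown by edgeR to differ between the tissues in its interaction.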

How the data were processed

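Poly(A) RNA-seq of gingiva and bone was deposited as 1 table of estimated gene counts per tissue, which the authors made; the submitters' processing notes name Trimmomatic 0.39, FastQC 0.11.9, HISAT2 2.2.1, StringTie 2.1.7, DESeq2 1.32.0 and build GRCm39, without settings or order. Strand use is not given in the sources used here. The deposited estimated counts were whole numbers and entered the fits unchanged. Of 55359 gene identifiers 52083 matched a GENCODE M21 symbol, and the rest took at most 0.409% of a gingiva library. The column letters CR were read as the composite resin of the Tra label.

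All 16 gingiva libraries entered 1 edgeR 4.0.16 quasi-likelihood fit of group means (R 4.3.3, TMM, filterByExpr with minimum count 10 and minimum total 15), which left 20143 genes; p-values are two-sided with Benjamini-Hochberg adjustment over all of them. Fits were tested on simulated data. Alternatives were DESeq2 1.42.0, limma-voom 3.58.1, other scalings and filters, a replicate block, leaving out each library and, chosen after seeing the data, a GC trend removal (lowess, span 0.3, on the longest transcript's GC content) and leaving out Li 1 and 2 or Li 3 and 4.

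The members, the 50 gene lists and the rule for named genes were chosen with earlier results of these data known. The rule took 12 genes in each direction, called ones first and then those with the smallest p (mean log2 CPM at least 1, no predicted genes or pseudogenes), from each list the 2 genes of lowest p, and 18 fixed genes; genes of the lists are given in part by count. Hspa1b, Hsph1, Hsp90ab1, Hsp90b1, Gclc, Gclm, Txnrd1, Slc7a11, AC124108.1, Elane, Gm49333 and genes given by name alone were chosen after their values were seen. The promoters printed were chosen for holding a match. A few genes under this rule are left out of the text. The labels state no pairing, and gingiva libraries of the same number in different groups deviated together weakly at most (r -0.207 to 0.153 over 24 pairs). Numbers were therefore not taken to pair them.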

Additional observations from a re-analysis of the deposited data

Results flagged for a closer look

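In 15 of 292 groups of 4 libraries, over 73 genes, 1 library stood far from the other 3 by Dixon's gap (on log2 of CPM + 0.1); chance flags about 1 in 20 groups. Co 1 was the library in 3 of them: it was lowest of the Co group for Cdh13 (34.9 CPM, others 43.0 to 44.1), Gclc (194.8 CPM, others 283 to 296) and Gclm (108.4 CPM, others 164.2 to 165.5). Both ligase values of Co 1 lay within the treated groups.

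LiTra 2 was lowest of its group for Hspa1a (35.4 CPM, others 46.3 to 48.1) and Hspa1b (73.1 CPM, others 105.8 to 112.2), which can share reads. LiTra 3 was lowest for Il6 (0.971 CPM, others 13.2 to 21.1). In Li, Li 1 was highest for Tmed8 (22.6 CPM, others 19.5 to 19.8) and lowest for Jup (317 CPM, others 586 to 660.0), Li 2 was highest for Txnrd1 (114.5 CPM, others 92.3 to 93.4), and Li 3 was lowest for Vegfa (108.8 CPM, others 153 to 157) and Tnfrsf11b (10.3 CPM, others 26.01 to 29.7). In Tra, Tra 2 was highest for Esd (301 CPM, others 272 to 274), and Tra 4 was highest for Il6 (0.165 CPM, others 0). In Co, Co 3 was lowest for Il6 (0 CPM, others 0.079 to 0.097) and Co 4 for Muc5b (0.079 CPM, others 2177 to 5019).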

How the results depend on the processing

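The count of 0 genes called for the interaction held under DESeq2 size factors, library totals, either filter, limma-voom, the replicate block, genes with a symbol alone, both stricter thresholds, the GC trend removal and without Li 3 and Li 4. DESeq2 called 183 genes, and edgeR without Li 1 and Li 2 called 404, 127 positive and 277 negative, of which 73 were shared (39.9% of the DESeq2 calls and 18.1% of the others); the cause was not tested. Leaving out each library in turn gave 0 to 1 calls; the 1, without Co 4, was the predicted gene AC124108.1 (adjusted p = 0.00153). The gingiva minus bone count was 0 in every setting run but DESeq2 (41), and leaving out each library gave 0 to 0.

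Of 73 genes followed, 64 kept their direction in every setting, all 24 with the smallest p among them. Without Li 3 and Li 4 the interaction turned to 0.16 for Lor, -0.048 for Il1b, -0.012 for Il6, -0.085 for Saa3, 0.11 for Krt13, -0.16 for Ctsk and -0.48 for Mmp13. Without Li 1 and Li 2 it turned to 1.53 for Mmp3 and 0.51 for Tnfsf11. Mmp3 was 0.94 by limma-voom and Mmp13 -0.026 with the GC trend removed. Leaving out single libraries gave -0.17 to 0.77 for Ctsk and -0.16 to 0.67 for Mmp13.

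The replicate block called 0 genes (lowest adjusted p 0.23, against 0.255 without it) and 0 for the tissue difference. In gingiva, 4 of 16 libraries deviated most like one of their own number. Gingiva and bone libraries of the same group and number had a median r of 0.0415, against -0.0137 for other numbers of the same group. The labels do not say whether a number marks the same animal, and such weak correlations cannot settle it.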

Other observations

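Arntl, the core activator of the circadian clock, stood at 9.68, 9.11, 10.4 and 7.93 CPM in LiTra gingiva, 7.19, 7.83, 11.03 and 15.8 in Li, 9.04, 9.72, 21.7 and 15.8 in Tra and 6.39, 7.16, 8.15 and 6.88 in Co. Co overlapped Li 1, Li 2 and LiTra 4, and Tra 3 was highest. Its interaction was -1.15 ± 0.39 in gingiva and -1.10 ± 0.41 in bone, and neither was called by edgeR (adjusted p = 0.323 in gingiva). Of 17 clock genes 4 were negative at an unadjusted p under 0.05 in gingiva, Arntl, Per2 and Cry1 among them, against 6.76% of all genes, and the labels give no hour of sampling.

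Cd3g, a subunit of the T cell receptor complex, stood at 2.25, 1.95, 4.50 and 4.61 CPM in LiTra gingiva, 0.924, 2.89, 0.976 and 0.289 in Li, 1.28, 0.646, 0.630 and 0.777 in Tra and 1.603, 2.204, 1.89 and 1.96 in Co, with an interaction of 2.59 ± 0.73. It was 1 of 19 T and NK cell genes at an unadjusted p under 0.05 on the positive side, against 4.61% of all genes. Defb14, an epithelial beta-defensin, stood at 25.5, 14.0, 19.9 and 17.4 CPM in LiTra gingiva, 16.98, 8.34, 10.9 and 11.6 in Li, 9.63, 11.6, 10.7 and 8.81 in Tra and 14.5, 11.7, 17.1 and 19.7 in Co, with an interaction of 1.31 ± 0.32. DESeq2 called both.

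AC124108.1, a predicted gene, stood at 0 in all 4 LiTra libraries and in Co 4, against 7.94, 5.67, 4.27 and 6.89 CPM in Li, 2.95, 3.06, 4.82 and 5.75 in Tra and 1.94, 3.55 and 6.09 in Co 1 to Co 3. Its adjusted p for LiTra minus Li was 0.0452 by edgeR.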
